A study of Homo sapiens with 12 samples.

Results

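Chromosome 12 short-arm tip genes were taken here as the genes whose deposited entry starts within the first 20 Mb of chromosome 12 and whose mean level over all libraries was at least 5 TPM, a length-normalized transcript abundance scaled to the same sum in each library. The level sets which genes were kept, and the entries that carry a dot in their name and 8 further named genes were left out. Of 544 gene identifiers listed on the stretch, 221 were at 0 in every library, 156 had a mean of at least 1 TPM and 121 a mean of at least 5 TPM. Leaving out 18 dotted names and the 8 named genes gave 95 members of the 63677 identifiers in the tables. The 8 were TSPAN9, GAPDH, TPI1, ENO2, SLC2A3, FOXM1, CCND2 and C12orf5. Of the members 81 were protein coding, 13 were pseudogenes and 1, CD27-AS1, was annotated as a processed transcript. The stretch had drawn attention through earlier results of these libraries, so its median shift is given as a description.

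The libraries were made from DAOY, an established human medulloblastoma cell line that was grown in serum. NOTCH1KO and NOTCH2KO cells, in which CRISPR/Cas9 had inactivated 1 Notch receptor gene, were set beside WT cells, and the study compared them to separate what each receptor does. Cells of each genotype were cultured on immobilized Jagged1, a Notch ligand, or on the Fc control fragment, each with the γ-secretase inhibitor DAPT for 12 h or with DMSO. Each of the 12 combinations had 1 library, so a mean ± SD below is over the 4 cultures of a genotype, and a p-value sets a difference against how far the libraries depart from an additive model. Whether a knockout line was 1 clone is not given in the sources used here, and line and genotype cannot be told apart.

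A position-defined set is chosen by neighbourhood alone, and its genes can have unrelated duties. The short arm of chromosome 12 is gene dense near the markers CD9 and CHD4, and it carries genes for making ribosomes, splicing RNA, condensing chromosomes, repairing DNA and starting the classical complement cascade. Neighbouring genes can also share a promoter region when they start back to back on opposite strands. In the canonical Notch pathway the cleaved receptor binds the DNA-binding protein RBPJ, whose recognition core reads TGGGAA.

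Of the 95 members, 68 matched a RefSeq promoter (GRCh38.p14, 250 bases before to 50 after the start). The 6 windows below are shown because YBX3 had the largest called fall in NOTCH2KO cells and NOP2 the largest among RNA processing genes, RAD51AP1 and C12orf4 start back to back and differed in their call, and C1R and C1RL fell most in NOTCH1KO cells. Each is written 5′ to 3′ on the strand of its gene. Capitals mark the GC box (GGGCGG or CCGCCC), the CCAAT box (CCAAT or ATTGG), the E-box (CACGTG) and the RBPJ core (TGGGAA or TTCCCA). None of these motifs contains another, and a match is a description of letters. YBX3 lies at chr12:10723274-10723573 on the minus strand, NOP2 at chr12:6568242-6568541 on the minus strand, RAD51AP1 at chr12:4538640-4538939 on the plus strand, C12orf4 at chr12:4538420-4538719 on the minus strand, C1R at chr12:7092396-7092695 on the minus strand and C1RL at chr12:7109165-7109464 on the minus strand.
YBX3: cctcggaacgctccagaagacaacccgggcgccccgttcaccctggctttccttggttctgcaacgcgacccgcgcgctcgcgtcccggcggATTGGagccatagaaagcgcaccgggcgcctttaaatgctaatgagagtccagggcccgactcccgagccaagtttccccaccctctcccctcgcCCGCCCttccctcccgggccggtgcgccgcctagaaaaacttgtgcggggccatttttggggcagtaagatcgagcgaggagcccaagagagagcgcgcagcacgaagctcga
NOP2: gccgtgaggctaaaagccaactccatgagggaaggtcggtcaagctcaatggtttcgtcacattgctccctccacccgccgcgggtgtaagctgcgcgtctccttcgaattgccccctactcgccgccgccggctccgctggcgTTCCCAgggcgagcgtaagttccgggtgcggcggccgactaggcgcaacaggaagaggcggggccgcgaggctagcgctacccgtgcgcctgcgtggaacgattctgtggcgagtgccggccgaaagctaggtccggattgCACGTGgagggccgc
RAD51AP1: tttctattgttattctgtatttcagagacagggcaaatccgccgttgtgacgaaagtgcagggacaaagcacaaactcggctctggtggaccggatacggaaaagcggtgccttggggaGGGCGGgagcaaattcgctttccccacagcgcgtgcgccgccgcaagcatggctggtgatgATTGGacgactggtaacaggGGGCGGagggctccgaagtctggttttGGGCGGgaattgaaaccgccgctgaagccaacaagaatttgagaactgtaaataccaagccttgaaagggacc
C12orf4: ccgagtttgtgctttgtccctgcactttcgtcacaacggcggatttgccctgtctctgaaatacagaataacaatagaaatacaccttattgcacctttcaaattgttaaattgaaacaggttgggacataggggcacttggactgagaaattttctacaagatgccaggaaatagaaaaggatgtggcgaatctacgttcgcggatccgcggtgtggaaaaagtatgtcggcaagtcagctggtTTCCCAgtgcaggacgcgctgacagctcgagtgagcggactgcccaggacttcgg
C1R: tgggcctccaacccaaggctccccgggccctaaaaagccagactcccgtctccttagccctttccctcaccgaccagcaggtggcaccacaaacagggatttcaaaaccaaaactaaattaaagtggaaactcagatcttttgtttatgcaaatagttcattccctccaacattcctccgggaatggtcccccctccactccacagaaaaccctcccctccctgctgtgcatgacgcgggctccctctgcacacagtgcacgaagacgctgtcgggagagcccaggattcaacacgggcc
C1RL: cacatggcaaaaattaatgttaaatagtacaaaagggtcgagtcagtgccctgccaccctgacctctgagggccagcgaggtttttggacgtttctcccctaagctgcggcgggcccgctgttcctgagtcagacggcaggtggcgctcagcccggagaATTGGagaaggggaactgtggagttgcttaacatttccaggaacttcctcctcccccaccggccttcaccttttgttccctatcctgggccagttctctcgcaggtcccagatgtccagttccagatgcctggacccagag

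The YBX3 window held 1 GC box and 1 CCAAT box, and the NOP2 window 1 E-box and 1 RBPJ core. The RAD51AP1 and C12orf4 windows share 80 bases, yet the 3 GC boxes and the CCAAT box fell on the RAD51AP1 side and an RBPJ core on the C12orf4 side. C1R held none of the 4 motifs and C1RL 1 CCAAT box. Over the 68 matched members, 63.24% of windows held a GC box, against 44.59% of all 27305 promoters of the table. These promoters were not filtered by level, as the members were. Member windows also had a median GC content of 60% against 58.33%, and a median of 21 CG dinucleotides against 14. The RBPJ core was in 33.82% of member windows against 24.3% of all promoters, the CCAAT box in 33.82% against 35.7% and the E-box in 5.882% against 7.435%. Among members that fell in NOTCH2KO cells, 27 of 36 windows held a GC box (75%), against 16 of 32 (50%) among those not called. The RBPJ core ran the other way, with 9 of 36 (25%) against 14 of 32 (43.75%). The median count of CG dinucleotides was 24 in windows of members that fell and 16 in those not called. No test was made of these shares and counts.

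The libraries held between 18300000 and 22400000 reads, estimated from the deposited coverage and FPKM, and 17064 to 17790 genes at 1 TPM or more. NOTCH1 ranged over 0.278 to 0.874 TPM in NOTCH1KO cells, against 2.78 to 3.57 TPM in WT cells, and NOTCH2 over 41.6 to 60.5 TPM in NOTCH2KO cells, against 74.9 to 94.9 TPM in WT cells. Both targeted genes were thus lower in every library of their knockout, and NOTCH2 RNA was still present. Of the neural markers 6 of 8 were tested, ATOH1 and MAP2 averaged below 1 TPM, and their sum ranged over 61.4 to 76.1 TPM in NOTCH1KO, 96.4 to 115 TPM in NOTCH2KO and 79.6 to 105 TPM in WT cells. The epithelial sum was 588 to 759, 686 to 810.2 and 760.5 to 1030.2 TPM in the same order, and the mesenchymal sum 4062 to 5417, 5401 to 7628 and 4694 to 6222 TPM. The 9 blood and endothelial markers summed to 8.26 to 19.9, 8.78 to 12.1 and 10.6 to 13.3 TPM in the same order. Of these markers PTPRC and PECAM1 were listed at 0 in every library. The part of these levels in the results was not tested, and in bulk RNA fewer cells of a type and less RNA per cell cannot be told apart.

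In NOTCH2KO cells the short-arm members were lower than in WT cells as a group. The called falls included YBX3, EFCAB4B, NOP2, MRPL51, ARHGDIB and PHB2, described below, and no member rose. Of the 95 members 40 fell, where 7.35% of the 17621 tested genes fell and 12% rose (limma on log2(TPM + 1), adjusted p under 0.05). At an unadjusted p under 0.05, 53 members were lower and 2 higher. WNT5B, a Wnt ligand gene, was the single member called higher in any alternative (log2 difference 0.49, adjusted p = 0.0289, without the NOTCH1KO library on Fc with DAPT). The median member difference was -0.40 on the log2 scale (quartiles -0.60 and -0.12), which is a fold of 0.759, against -0.05 for 519 genes of the same level further along chromosome 12 and 0.07 for 11139 on other chromosomes. Over all tested genes the median was 0.06. All 4 NOTCH2KO libraries lay below all 4 WT libraries for 41 members, where 9.78% of tested genes did so. Between 28 and 41 members fell when 1 library was left out, and 22 of the 40 were called in every alternative.

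The shift was present in each culture. The median difference from the matched WT library was -0.38 (DMSO) and -0.45 (DAPT) on Fc, and -0.30 (DMSO) and -0.42 (DAPT) on Jagged1. Summed over the 95 members, the libraries held 5042, 5020, 5347 and 5389 TPM in NOTCH2KO cells in that order of cultures, against 7266, 7213, 7501 and 7490 TPM in WT cells. NOTCH1KO libraries held 6970, 7112, 6716 and 7248 TPM. The NOTCH2KO sums thus lay apart from both other genotypes, while 1 NOTCH1KO sum reached into the WT range. Over the 81 protein-coding members alone, NOTCH1KO sums were 5761 to 6267 TPM against 6590 to 6822 TPM in WT cells, without overlap. The 13 pseudogene members, whose values are uncertain, summed to 790 to 970 TPM in NOTCH1KO cells against 605 to 831 TPM in WT cells.

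**Figure D1:**
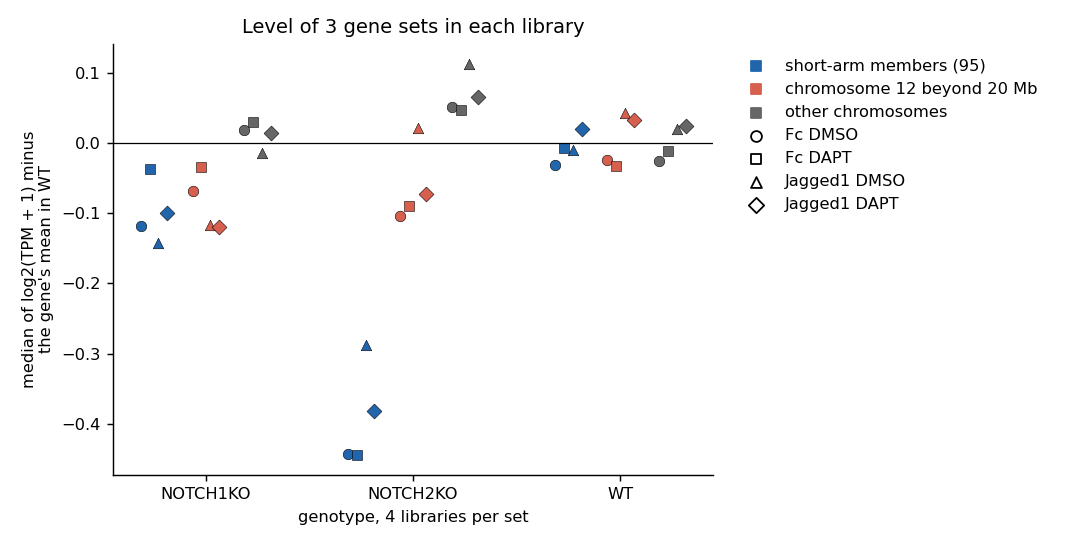
Median over 3 gene sets of log2(TPM + 1) minus each gene's WT mean (y axis, log2 units) in the 12 libraries, grouped by genotype on the x axis, with 1 symbol per culture. The 95 short-arm members sit between -0.44 and -0.29 in NOTCH2KO libraries and between -0.03 and 0.02 in WT libraries, while genes on other chromosomes stay above 0 in NOTCH2KO libraries.

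Along the arm the lower levels in NOTCH2KO cells were not limited to 1 end. In steps of 2 Mb up to 16 Mb, the median difference of the members ranged from -0.59 to -0.29, and over 16 to 20 Mb it was -0.11 for 9 members. Members that start before 10 Mb had a median of -0.40 with 25 of 65 falling, and those that start later a median of -0.41 with 15 of 30. In the next window, 20 to 30 Mb, the median was -0.11 for 28 genes of the same level, with 5 falling. From 30 Mb to the end of the chromosome no window of 10 Mb went below -0.09. Among 154 windows of 20 Mb over the genome, compared by their protein-coding genes, the short-arm window had the lowest median (-0.43 over 89 genes, left-out genes included) and 2 windows of chromosome 6 came next (-0.37 and -0.35). In NOTCH1KO cells the same window ranked 30 from the lowest (-0.12). The windows were compared with no test.

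**Figure D2:**
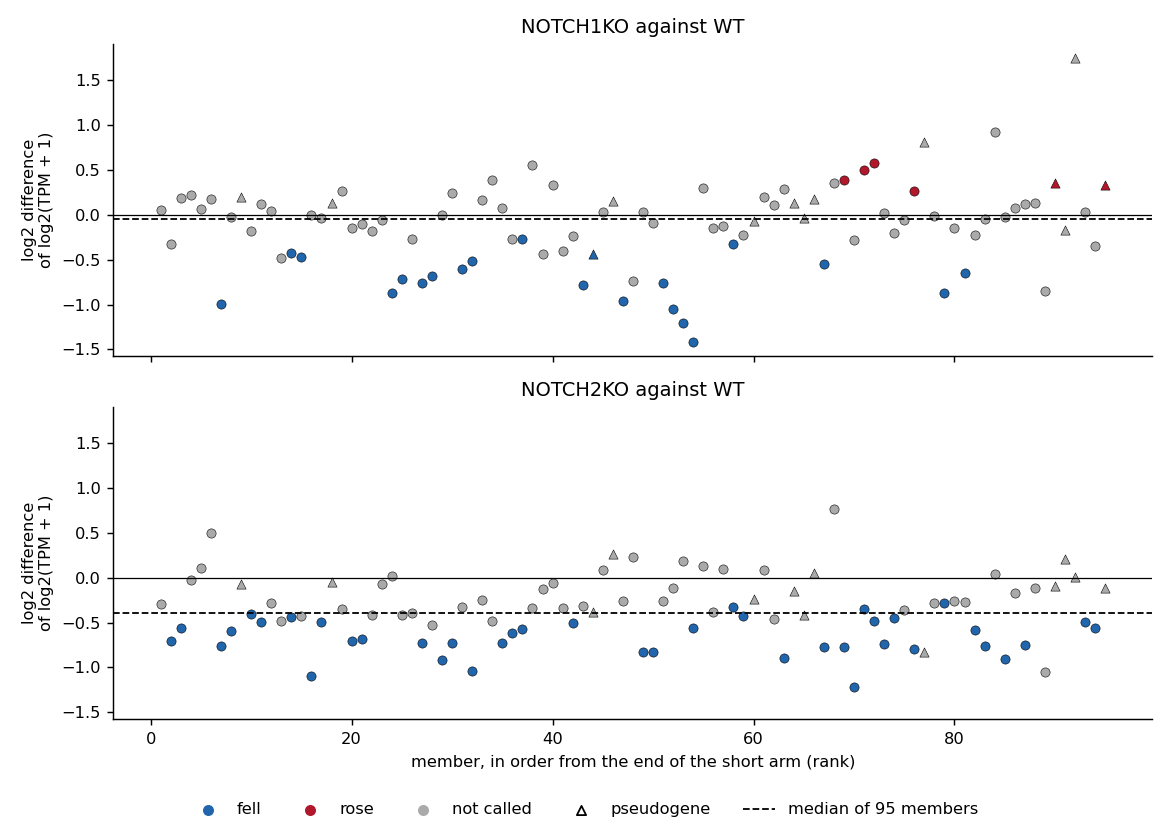
Difference from WT in log2(TPM + 1) (y axis) of the 95 members in order from the end of the short arm (x axis, rank), for NOTCH1KO (top) and NOTCH2KO (bottom) cells, coloured by call, with triangles for pseudogenes. In NOTCH2KO cells 40 members fell, spread along the whole order, and the dashed median is -0.40; in NOTCH1KO cells 21 fell and 6 rose around a median of -0.04.

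The 8 genes that the rule left out by name lay at a median of -0.55 in NOTCH2KO cells, with 5 of 8 falling. With them put back the median of the whole set was -0.41. Protein-coding members had a median of -0.42 with 39 of 81 falling, against 0.08 and 7.09% of 9803 protein-coding genes on other chromosomes. None of the 13 pseudogene members was called (median -0.09, 1 higher and 2 lower at an unadjusted p under 0.05), near the -0.06 of 1031 pseudogenes elsewhere. Reads of processed pseudogenes can come from parent genes on other chromosomes, so their values are uncertain.

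The share of members that fell in NOTCH2KO cells was also read by level. At a mean of 100 TPM or more 13 of 23 members fell (56.5%, median -0.57), against 13.2% of 1813 genes on other chromosomes (median -0.00). Between 50 and 100 TPM it was 7 of 13 (median -0.59) against 8.96%, between 20 and 50 TPM 7 of 24 (-0.27) against 6.43%, between 10 and 20 TPM 9 of 21 (-0.33) against 4.88%, and between 5 and 10 TPM 4 of 14 (-0.37) against 5.75%. The share that fell was thus above that of other chromosomes in each of the 5 bands, without a steady order by level among the members, and the bands were compared with no test.

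**Figure D3:**
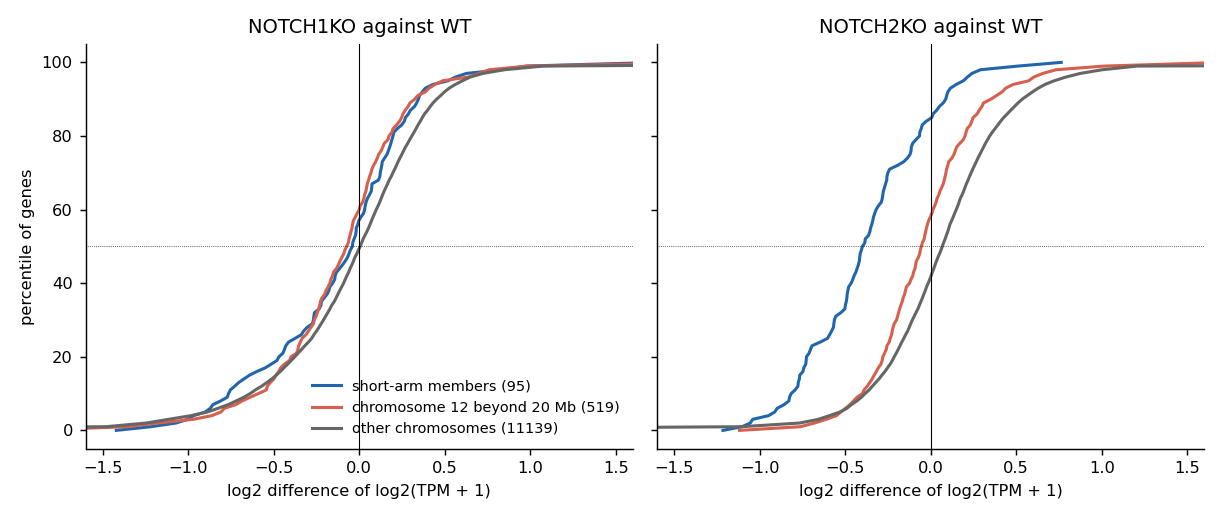
Cumulative distribution of the difference from WT in log2(TPM + 1) (x axis) as a percentile of genes (y axis) for the 95 members, 519 genes further along chromosome 12 and 11139 genes on other chromosomes, in NOTCH1KO (left) and NOTCH2KO (right) cells. The member curve lies left of both others in NOTCH2KO cells, with 80 of 95 members below 0, and close to them in NOTCH1KO cells.

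Genes for RNA processing and ribosome production fell most often in NOTCH2KO cells, with 8 of 9 called and a median of -0.78. The count of each role list stands beside the 42.1% of all members and 7.35% of all tested genes that fell. No role list was tested as a set. NOP2 (ENSG00000111641, chr12:6666029-6677857 on the minus strand, GRCh37) encodes a nucleolar methyltransferase of ribosomal RNA. Its levels were 101.2, 69.9, 72.6 and 74.7 TPM in NOTCH2KO cells, against 170.2, 159.5, 164 and 158 TPM in WT cells. The values of each genotype follow the order of cultures above: the Fc pair, then the Jagged1 pair, DMSO before DAPT in each. The groups did not overlap, and NOP2 fell to 79.6 ± 14.5 TPM in NOTCH2KO cells, against 163 ± 5.64 TPM in WT cells (SD, n = 4 each; log2 difference -1.04 ± 0.10 SE, adjusted p = 0.000546). EMG1 (ENSG00000126749, chr12:7072408-7105520 on the plus strand, GRCh37), a methyltransferase of the small ribosomal subunit, was at 88.3, 89.5, 92.7 and 91.5 TPM in NOTCH2KO cells, against 148, 165, 158 and 175 TPM in WT cells. The spread within each genotype was small beside this gap (log2 difference -0.83 ± 0.07 SE, adjusted p = 0.000208). Its entry overlaps those of PHB2 and C1S in the files, and reads of overlapping genes cannot be told apart unless strand was used.

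MRPL51 (ENSG00000111639, chr12:6601150-6603007 on the minus strand, GRCh37), a protein of the large mitochondrial ribosomal subunit, was at 130.2, 123, 139.6 and 151 TPM in NOTCH2KO cells, against 282, 241, 236 and 274 TPM in WT cells. All NOTCH2KO values were lower (log2 difference -0.92 ± 0.12 SE, adjusted p = 0.00179). STRAP (ENSG00000023734, chr12:16035325-16056412 on the plus strand, GRCh37), a WD-repeat protein of the SMN complex that also binds the TGF-β receptor, was at 302, 246, 301 and 346 TPM in NOTCH2KO cells, against 429, 446, 574 and 560.4 TPM in WT cells, again without overlap (log2 difference -0.75 ± 0.16 SE, adjusted p = 0.0157). The STRAP call was lost without the WT library on Jagged1 with DMSO or with DAPT, the NOTCH2KO library on Fc with DAPT or that on Jagged1 with DMSO (adjusted p up to 0.0558). MAGOHB, a core protein of the exon junction complex, was at 20.9, 22.4, 23.3 and 19.2 TPM in NOTCH2KO cells, against 38.4, 33.6, 41.2 and 36.4 TPM in WT cells (log2 difference -0.78 ± 0.10 SE, adjusted p = 0.00182), and DDX47, a helicase of ribosomal RNA processing, at 83.9, 95.6, 86.7 and 101.3 TPM against 149, 165, 171 and 157 TPM (log2 difference -0.80 ± 0.08 SE, adjusted p = 0.000653). Both were therefore near a log2 difference of -0.8 with narrow groups. WBP11, a spliceosome-associated protein, and DCP1B, a decapping cofactor, were the other calls. The member of that list not called, DDX12P, which belongs to the DDX11 family of helicases rather than to RNA processing, had a lower estimate (log2 difference -0.42 ± 0.15 SE, adjusted p = 0.0891; adjusted p = 0.0407 with libraries centred on their median).

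**Figure D4:**
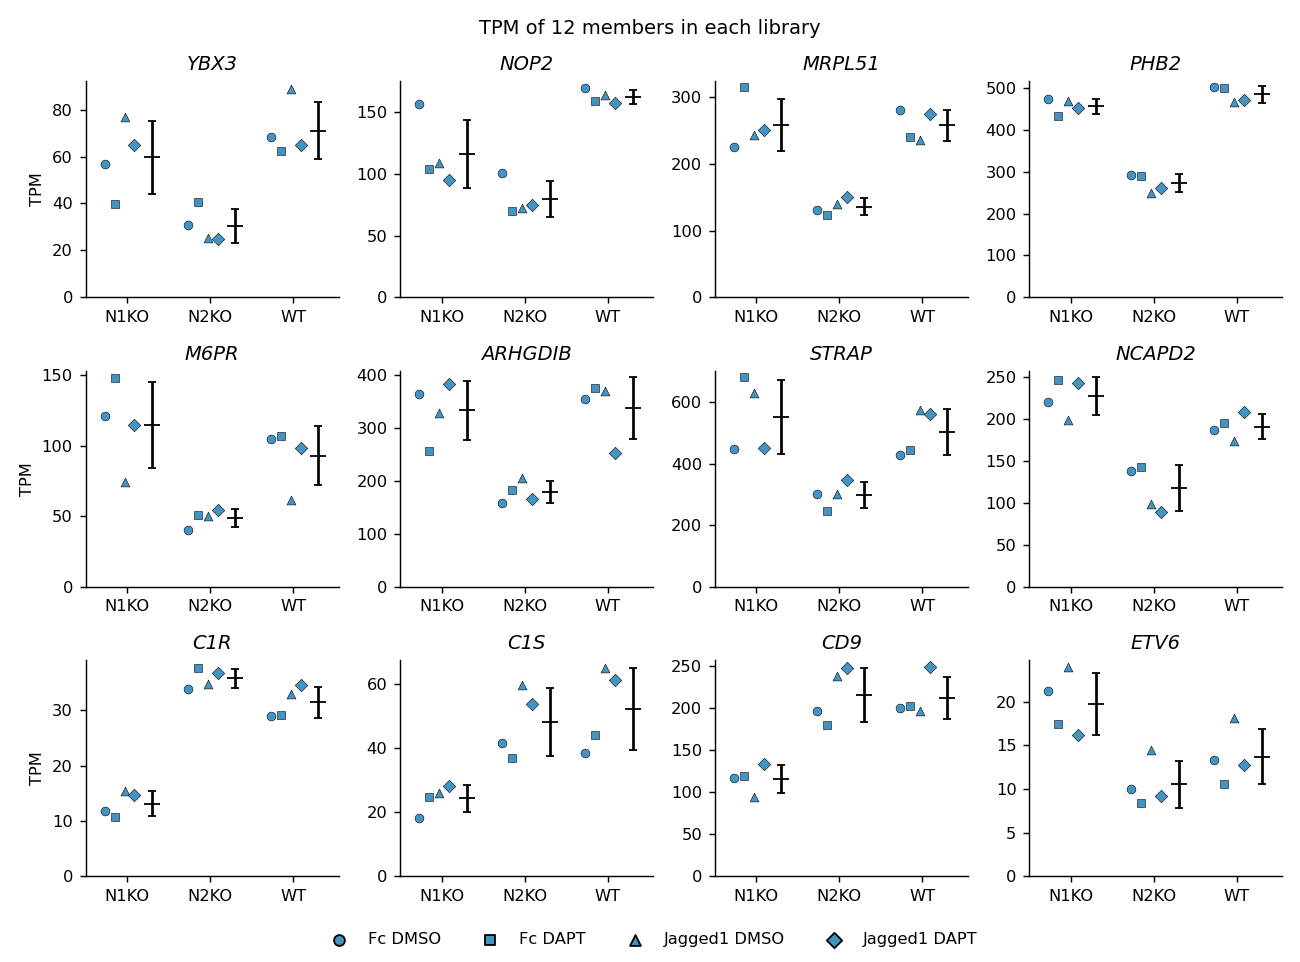
TPM (y axes from 0) of 12 members in each library, in NOTCH1KO (N1KO), NOTCH2KO (N2KO) and WT cells, with 1 symbol per culture and the mean ± SD of 4 libraries to the right of each group. YBX3, NOP2, MRPL51, PHB2, ARHGDIB, STRAP and NCAPD2 are lower in all 4 NOTCH2KO libraries than in any WT library, while C1R, C1S and CD9 are lower in all 4 NOTCH1KO libraries.

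Chromatin and transcription genes were next in number, with 8 of 15 falling and a median of -0.44. YBX3 (ENSG00000060138, chr12:10851683-10875911 on the minus strand, GRCh37), a cold-shock domain protein that binds DNA and RNA, had the largest called fall of all members. It stood at 31.00, 40.6, 25.3 and 24.6 TPM in NOTCH2KO cells, against 68.4, 62.3, 88.96 and 64.8 TPM in WT cells. The highest NOTCH2KO value lay below the lowest WT value (log2 difference -1.21 ± 0.23 SE, adjusted p = 0.00831). ETV6, an ETS-family repressor, was at 10.02, 8.36, 14.5 and 9.27 TPM in NOTCH2KO cells, against 13.3, 10.6, 18.1 and 12.8 TPM in WT cells. These groups overlapped, and the ETV6 fall (log2 difference -0.35 ± 0.09 SE, adjusted p = 0.0311) rested on matched cultures, since with the genotype term alone the adjusted p was 0.234 and leaving out any WT or NOTCH2KO library but WT on Fc with DAPT also ended the call (adjusted p up to 0.102). AEBP2, a cofactor of the Polycomb repressive complex 2, was at 16.2, 12.1, 21.2 and 15.9 TPM in NOTCH2KO cells, against 22.5, 24.9, 27.3 and 22.4 TPM in WT cells (log2 difference -0.56 ± 0.12 SE, adjusted p = 0.0126). On the coverage scale the AEBP2 difference shrank to -0.14 (adjusted p = 0.191). ZNF384, CREBL2, ATF7IP, FOXJ2 and TULP3 also fell, the last being better known for ciliary traffic than for transcription. CHD4, the remodelling ATPase of the NuRD complex, was not called (log2 difference -0.25 ± 0.15 SE, adjusted p = 0.275; adjusted p = 0.0181 on the coverage scale).

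For cell cycle and DNA repair 4 of 7 members fell, with a median of -0.48. NCAPD2 (ENSG00000010292, chr12:6602522-6641121 on the plus strand, GRCh37), a subunit of condensin I, was at 139, 143, 98.6 and 88.98 TPM in NOTCH2KO cells, against 187, 195, 174 and 208 TPM in WT cells. All NOTCH2KO values were lower, the 2 Jagged1 cultures most (log2 difference -0.73 ± 0.13 SE, adjusted p = 0.00805). RAD51AP1, a DNA repair protein, was at 50.2, 65.2, 61.5 and 67.05 TPM in NOTCH2KO cells, against 107, 117, 77.1 and 100.4 TPM in WT cells, again without overlap (log2 difference -0.70 ± 0.12 SE, adjusted p = 0.00513). CDKN1B, which encodes the cell cycle inhibitor p27, and PARP11 were the other calls, while RAD52, CDCA3 and RHNO1 were not called.

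Membrane traffic and autophagy gave 5 falls among 7 members, with a median of -0.49. M6PR, the cation-dependent receptor that carries enzymes to lysosomes, was at 39.98, 51.1, 50.1 and 54.3 TPM in NOTCH2KO cells, against 105, 107, 61.8 and 98.8 TPM in WT cells. The WT library on Jagged1 with DMSO was the lowest of its group yet above all NOTCH2KO values (log2 difference -0.89 ± 0.17 SE, adjusted p = 0.0092), and the adjusted p was 0.0559 on the coverage scale. GABARAPL1, an ATG8-family protein of autophagosomes, was at 19.1, 17.2, 24.3 and 22.7 TPM in NOTCH2KO cells, against 31.4, 30.2, 44.2 and 40.3 TPM in WT cells, with no overlap (log2 difference -0.78 ± 0.10 SE, adjusted p = 0.00177). NECAP1, an adaptor of clathrin-coated vesicles, PLEKHA5 and CCDC77, whose place in this list is less certain, were also called.

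Among receptors and signalling genes 5 of 11 fell, with a median of -0.42. ARHGDIB, a guanine nucleotide dissociation inhibitor, was at 159, 182, 206 and 165 TPM in NOTCH2KO cells, against 354, 376, 370.3 and 252 TPM in WT cells. The groups stayed apart (log2 difference -0.91 ± 0.17 SE, adjusted p = 0.00757). DUSP16, a phosphatase that acts on the JNK kinases, was low in all cells, at 2.80, 3.10, 4.06 and 3.86 TPM in NOTCH2KO cells, against 3.87, 5.54, 5.89 and 5.66 TPM in WT cells. These groups overlapped, and the call (log2 difference -0.48 ± 0.13 SE, adjusted p = 0.0307) was lost without any 1 of the 8 WT and NOTCH2KO libraries (adjusted p up to 0.0932). WNK1, a kinase of ion transport, ADIPOR2, an adiponectin receptor, and the kinase DYRK4 were the others that fell. The TNF receptor gene TNFRSF1A was at 65.2, 143, 121 and 150.0 TPM in NOTCH2KO cells, with 1 culture far below the other three, against 143, 155, 165 and 148 TPM in WT cells, and was not called (log2 difference -0.42 ± 0.20 SE, adjusted p = 0.199), although on the coverage scale its adjusted p was 0.00904.

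Of protein folding and turnover genes 4 of 8 fell, with a median of -0.50. They were FKBP4, a co-chaperone of HSP90, COPS7A, a subunit of the COP9 signalosome, USP5, a deubiquitinase, and MLF2. In the mitochondrial, lipid and redox group 2 of 7 fell. PHB2 (ENSG00000215021, chr12:7074490-7079988 on the minus strand, GRCh37), a prohibitin of the inner mitochondrial membrane, was at 293, 291, 250.2 and 262 TPM in NOTCH2KO cells, against 504, 500.2, 466 and 471 TPM in WT cells. Its groups were narrow and far apart (log2 difference -0.83 ± 0.06 SE, adjusted p = 0.000178). HEBP1, a heme-binding protein, was the other call (log2 difference -0.28 ± 0.07 SE, adjusted p = 0.0277), which leaving out any 1 of the 8 WT and NOTCH2KO libraries ended (adjusted p up to 0.0892). MGST1, a microsomal glutathione transferase, had a large estimate but scattered widely, at 64.8, 149, 169 and 142 TPM in NOTCH2KO cells against 361.5, 162, 222 and 332 TPM in WT cells, and was not called (log2 difference -1.05 ± 0.41 SE, adjusted p = 0.11; adjusted p = 0.0374 with library weights).

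Cell surface and secreted proteins were the group that moved least in NOTCH2KO cells, with 1 of 8 falling and a median of -0.09. The 1 call was C1RL, described below. Of the 23 members in no role list 3 fell, namely EFCAB4B, FBXL14 and CD27-AS1. Both shares stand beside the 7.35% of all tested genes that fell. EFCAB4B, a calcium-binding regulator of store-operated calcium entry, was at 3.43, 3.12, 3.13 and 4.22 TPM in NOTCH2KO cells, against 9.56, 9.001, 7.34 and 8.33 TPM in WT cells, without overlap (log2 difference -1.10 ± 0.15 SE, adjusted p = 0.00207).

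**Figure D5:**
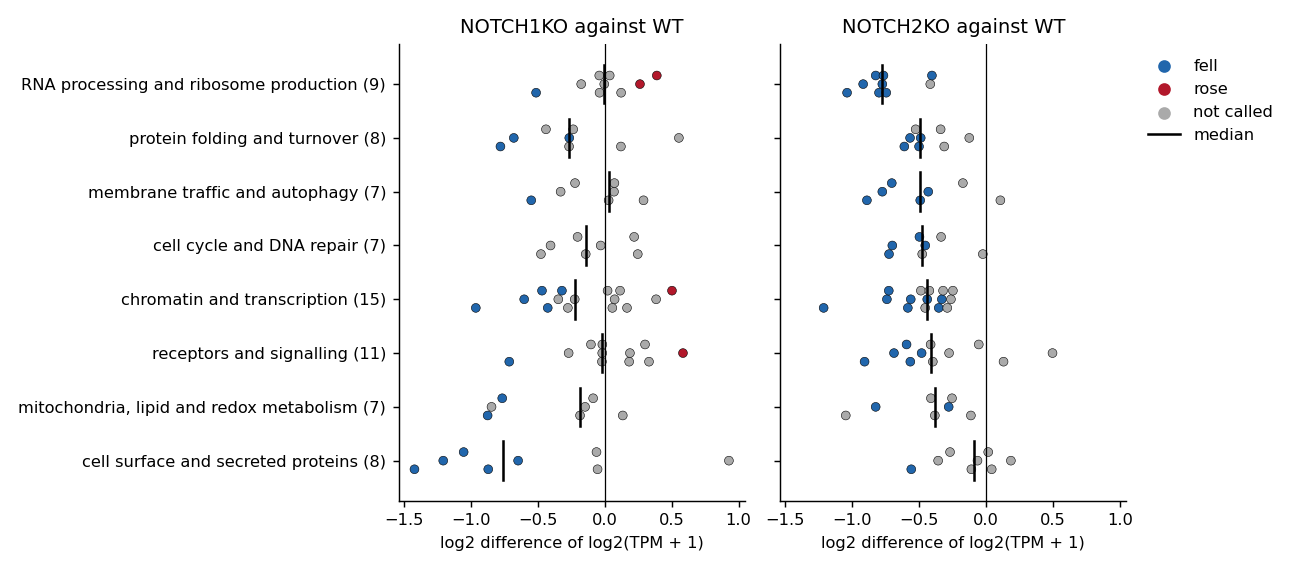
Difference from WT in log2(TPM + 1) (x axis) of the members by role list (y axis, number of members in brackets), in NOTCH1KO (left) and NOTCH2KO (right) cells, coloured by call, with the median of each list as a vertical bar. RNA processing and ribosome production is lowest in NOTCH2KO cells, with 8 of 9 members called, and cell surface and secreted proteins lowest in NOTCH1KO cells, with 5 of 8 called.

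Genes that start back to back were not always called together. Among 7 member pairs on opposite strands whose starts lie within 1000 bases in the deposited entries, both fell in NOTCH2KO cells in 1 pair (MRPL51 and NCAPD2, whose entries overlap), 1 of them fell in 5 pairs and neither in 1 pair (RAD52 and ERC1). In every pair but RAD52 and ERC1 (-0.03 and 0.11) the estimates of both genes were negative. STRAP and EPS8, an actin regulator, start 62 bases apart, and EPS8 was not called (log2 difference -0.17 ± 0.11 SE, adjusted p = 0.328). RAD51AP1 and C12orf4 start 276 bases apart, and C12orf4 was not called (log2 difference -0.35 ± 0.14 SE, adjusted p = 0.113), at 22.98, 25.1, 26.5 and 20.7 TPM in NOTCH2KO cells, against 33.1, 29.4, 31.8 and 28.05 TPM in WT cells. Its NOTCH2KO values all lay below the WT values, as those of RAD51AP1 did, so the pair differed in its call and not in direction, and on the coverage scale C12orf4 was called too (adjusted p = 0.00218). Of all 95 members 42.1% fell, and neither the pair counts nor the difference between the genes of a pair was tested.

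In NOTCH1KO cells the median of the members was close to that of other genes, and single genes moved in both directions. C1R and C1S, the linked protease genes of the classical complement cascade, the C1R-like gene C1RL and CD9 fell, while ETV6 and DUSP16 rose. Of the 95 members 21 fell and 6 rose, against 12.8% of all tested genes that fell and 10.7% that rose. The median was -0.04, against -0.07 for genes further along chromosome 12 and 0.01 for those on other chromosomes, and it turned to 0.01 when each library was centred on its median. Leaving out an Fc library of WT cells left 11 falls (DMSO) or 10 falls (DAPT), and leaving out the NOTCH1KO library on Fc with DMSO left 13. The count of rises was 3 without WT cells on Fc in DMSO, and likewise without NOTCH1KO cells on Fc in DAPT. The calls that held in every alternative were the falls of CD9, LPCAT3, C1S, C1R, C1RL, HEBP1 and EMP1 and the rises of DUSP16 and EEF1A1P16. All 4 NOTCH1KO libraries lay below all 4 WT libraries for 21 members, where 12.5% of tested genes did so. Of the 81 protein-coding members 19 fell and 4 rose (median -0.09). Among protein-coding genes on other chromosomes 14.1% fell and 12.0% rose (median -0.00). The 13 pseudogene members had a median of 0.16. The 8 genes left out by name were all lower in NOTCH1KO cells (median -0.31), with 3 called. These sets were not compared with a test.

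Between 6 and 8 Mb, the window that held 34 of the 95 members, 14 fell in NOTCH1KO cells and the median was -0.27, where 12.8% of all tested genes fell. The other windows held 5 to 10 members and 0 to 2 falls each, too few to set their shares beside it, and no test compared the windows. Before 10 Mb 18 of 65 members fell and none rose, and from there to 20 Mb 3 fell and 6 rose among 30. Over all tested genes 12.8% fell and 10.7% rose. Of the members before 10 Mb none had all 4 NOTCH1KO libraries above all 4 WT libraries, where 2095 of 17621 tested genes did so.

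C1R (ENSG00000159403, chr12:7187513-7245203 on the minus strand, GRCh37) encodes a serine protease of the first complement component. Its levels were 11.7, 10.8, 15.4 and 14.7 TPM in NOTCH1KO cells, 33.8, 37.7, 34.7 and 36.8 TPM in NOTCH2KO cells and 28.9, 29.1, 33.01 and 34.6 TPM in WT cells. All NOTCH1KO values lay below every value of the other genotypes (log2 difference -1.21 ± 0.10 SE, adjusted p = 0.000197 for NOTCH1KO against WT). C1S (ENSG00000182326, chr12:7096351-7178336 on the plus strand, GRCh37), the protease that C1R activates, was at 18.4, 24.98, 26.2 and 28.3 TPM in NOTCH1KO cells, 41.8, 36.96, 59.95 and 54.03 TPM in NOTCH2KO cells and 38.7, 44.3, 65.1 and 61.3 TPM in WT cells, and here too NOTCH1KO values did not reach the WT range (log2 difference -1.05 ± 0.11 SE, adjusted p = 0.0006). In each genotype the Jagged1 cultures were higher than the Fc cultures for C1S. C1RL, a C1R-like protease, was at 5.31, 2.10, 5.27 and 2.71 TPM in NOTCH1KO cells (log2 difference -1.42 ± 0.15 SE, adjusted p = 0.000569), 7.71, 6.05, 9.77 and 6.48 TPM in NOTCH2KO cells and 13.9, 9.26, 11.7 and 11.01 TPM in WT cells. The C1RL fall in NOTCH2KO cells was smaller (log2 difference -0.56 ± 0.15 SE, adjusted p = 0.0331), and 7 of 12 fits that left out 1 library lost it (adjusted p up to 0.108), as did the coverage scale (adjusted p = 0.343). The entries of C1R and C1RL overlap.

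CD9 (ENSG00000010278, chr12:6308881-6347425 on the plus strand, GRCh37), a tetraspanin of the cell surface, was at 117, 119.6, 94.1 and 134 TPM in NOTCH1KO cells, 196, 180.1, 238 and 247 TPM in NOTCH2KO cells and 201, 203, 196 and 249 TPM in WT cells. The fall was seen in NOTCH1KO cells (log2 difference -0.87 ± 0.11 SE, adjusted p = 0.00128), and in NOTCH2KO cells CD9 was not called (log2 difference 0.01 ± 0.11 SE, adjusted p = 0.943). EMP1, a tetraspan membrane protein, was at 244, 276, 203 and 241 TPM in NOTCH1KO cells, against 360.5, 381, 351 and 414 TPM in WT cells (log2 difference -0.65 ± 0.11 SE, adjusted p = 0.00563), with no overlap. Together with C1R, C1S and C1RL they made the 5 falls among 8 cell surface and secreted members, whose median was -0.76. Over all tested genes 12.8% fell in NOTCH1KO cells. HEBP1 was at 23.2, 25.1, 22.6 and 24.6 TPM in NOTCH1KO cells, 35.5, 35.8, 34.8 and 40.1 TPM in NOTCH2KO cells and 41.5, 44.3, 42.7 and 50.2 TPM in WT cells, so that the 3 genotypes did not overlap (log2 difference -0.87 ± 0.07 SE, adjusted p = 0.000173 for NOTCH1KO).

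ATN1, a transcriptional corepressor, was at 56.5, 26.7, 38.9 and 43.4 TPM in NOTCH1KO cells, against 92.4, 105, 73.7 and 53.7 TPM in WT cells. The groups overlapped (log2 difference -0.96 ± 0.23 SE, adjusted p = 0.0193), and the call was lost without the WT library on Fc with DAPT or on Jagged1 with DMSO (adjusted p up to 0.0562). FBXL14, an F-box protein of ubiquitin ligases, was at 4.66, 2.18, 3.09 and 5.48 TPM in NOTCH1KO cells, 4.32, 5.86, 3.09 and 4.95 TPM in NOTCH2KO cells and 8.63, 10.05, 7.09 and 7.65 TPM in WT cells. It was called in both (log2 difference -0.99 ± 0.22 SE, adjusted p = 0.015 in NOTCH1KO and log2 difference -0.77 ± 0.22 SE, adjusted p = 0.0447 in NOTCH2KO). Leaving out WT on Fc with DAPT ended the first call (adjusted p = 0.0548) and 9 of 12 fits with 1 library left out ended the second (up to 0.128). SPSB2, a SOCS-box protein, was at 3.51, 2.22, 4.30 and 3.900 TPM in NOTCH1KO cells, against 8.31, 8.04, 5.03 and 5.43 TPM in WT cells (log2 difference -0.78 ± 0.20 SE, adjusted p = 0.0247), a call lost without either Fc library of WT or of NOTCH1KO (adjusted p up to 0.0812).

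TAPBPL, a tapasin-like protein of peptide loading, and TNFRSF1A fell in NOTCH1KO cells as well, with values of 5.24, 10.6, 9.72 and 8.23 TPM against 13.8, 13.1, 12.4 and 15.9 TPM in WT cells for TAPBPL (log2 difference -0.68 ± 0.21 SE, adjusted p = 0.0445). For TNFRSF1A they were 97.2, 81.3, 90.2 and 103 TPM in NOTCH1KO cells against 143, 155, 165 and 148 TPM in WT cells (log2 difference -0.71 ± 0.20 SE, adjusted p = 0.0373). Neither gene overlapped WT, yet 9 of 12 fits with 1 library left out lost the TAPBPL call (adjusted p up to 0.122) and 7 of 12 the TNFRSF1A call (up to 0.113). NOP2 and GABARAPL1 fell in NOTCH1KO cells too, by less than in NOTCH2KO cells, with log2 differences of -0.51 and -0.55. The NOP2 difference was -0.14 on the coverage scale (adjusted p = 0.114), and that of GABARAPL1 had an adjusted p of 0.0592 with the genotype term alone. The direct contrast of NOTCH2KO with NOTCH1KO called NOP2 (log2 difference -0.53 ± 0.10 SE, adjusted p = 0.00593) and not GABARAPL1 (log2 difference -0.23 ± 0.10 SE, adjusted p = 0.118).

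The 6 rises in NOTCH1KO cells lay between 10 and 20 Mb. DUSP16 was at 7.33, 10.2, 7.77 and 8.02 TPM in NOTCH1KO cells, against 3.87, 5.54, 5.89 and 5.66 TPM in WT cells (log2 difference 0.58 ± 0.13 SE, adjusted p = 0.0126), and ETV6 at 21.2, 17.5, 23.9 and 16.3 TPM against 13.3, 10.6, 18.1 and 12.8 TPM (log2 difference 0.50 ± 0.09 SE, adjusted p = 0.00695; adjusted p = 0.0811 with the genotype term alone). DUSP16 values stood apart, whereas ETV6 values overlapped and were higher in each matched culture. MAGOHB was at 55.2, 53.1, 45.7 and 43.7 TPM in NOTCH1KO cells (log2 difference 0.39 ± 0.10 SE, adjusted p = 0.0258), with all values above WT, and its call was lost without either Fc library of WT or of NOTCH1KO (adjusted p up to 0.0863). DDX47 was at the threshold (log2 difference 0.26 ± 0.08 SE, adjusted p = 0.0496), and 11 of 12 fits with 1 library left out lost it (up to 0.138). The other 2 were EEF1A1P16 (log2 difference 0.35 ± 0.06 SE, adjusted p = 0.00666) and EEF1A1P4 (log2 difference 0.34 ± 0.09 SE, adjusted p = 0.0235), pseudogenes of an elongation factor gene on another chromosome with which they can share reads. The EEF1A1P4 call was lost without WT on Fc with DMSO, WT on Fc with DAPT, WT on Jagged1 with DMSO or either Fc library of NOTCH1KO (adjusted p up to 0.0818).

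The direct comparison of NOTCH2KO with NOTCH1KO cells tested the difference between the 2 lines; both comparisons with WT share the 4 WT libraries. Of the 95 members 32 were lower in NOTCH2KO and 10 higher, against 11.9% and 19.8% of tested genes, with a median of -0.25 against 0.07 over all tested genes. The count of higher members was 6 without the NOTCH2KO library on Jagged1 with DAPT, and centring each library on its median gave 46 lower and 6 higher. M6PR (log2 difference -1.18 ± 0.17 SE, adjusted p = 0.00147), MAGOHB (log2 difference -1.17 ± 0.10 SE, adjusted p = 0.00014), EFCAB4B (log2 difference -1.09 ± 0.15 SE, adjusted p = 0.00108), DUSP16 (log2 difference -1.07 ± 0.13 SE, adjusted p = 0.000598) and DDX47 (log2 difference -1.06 ± 0.08 SE, adjusted p = 8.09e-05) were lower in NOTCH2KO cells by at least a log2 difference of 1. The 10 higher members were CD9, ATN1, C12orf57, LPCAT3, C1S, C1R, C1RL, HEBP1, EMP1 and PSMC1P9, led by C1R (log2 difference 1.39 ± 0.10 SE, adjusted p = 6.65e-05). RNA processing and ribosome production had 7 of 9 members lower in NOTCH2KO (median -0.86), and cell surface and secreted proteins 5 of 8 higher (median 0.62).

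Genes that work with the members but lie elsewhere in the genome were read for comparison, from lists drawn up by function. Their counts stand beside 12.8% of all tested genes that fell and 10.7% that rose in NOTCH1KO cells, and 7.35% that fell and 12% that rose in NOTCH2KO cells, and none of these lists was tested as a set. Of the 7 other condensin genes none fell in NOTCH2KO cells, and SMC4, a core ATPase of both condensins, rose (log2 difference 0.78 ± 0.16 SE, adjusted p = 0.0121). In NOTCH1KO cells SMC2, its partner ATPase, fell (log2 difference -0.67 ± 0.12 SE, adjusted p = 0.00682) and SMC4 rose (log2 difference 0.52 ± 0.16 SE, adjusted p = 0.0461), the SMC4 call being lost in 11 of 12 fits with 1 library left out (adjusted p up to 0.118). Of the 12 other NuRD genes none was called in NOTCH2KO cells, and none had an unadjusted p under 0.05 (limma). In NOTCH1KO cells MTA1 fell (log2 difference -1.15 ± 0.21 SE, adjusted p = 0.00589) and the deacetylase gene HDAC1 rose (log2 difference 0.33 ± 0.08 SE, adjusted p = 0.0207), which the coverage scale did not keep (adjusted p = 0.319) and 4 fits with 1 library left out lost (up to 0.0718). NCAPD2 was the single condensin gene of the list that fell in NOTCH2KO cells. Some of these genes lie in 20 Mb windows whose protein-coding genes were shifted as a group. In NOTCH1KO cells the window of SMC2 on chromosome 9 had a median of -0.87, the lowest of 154. The window of MTA1 was at -0.59 and that of HDAC1, which rose, at -0.15. In NOTCH2KO cells the window of SMC4 was at 0.31. The part of position in these calls was not tested.

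Of 7 complement genes tested elsewhere, 5 fell and 1 rose in NOTCH1KO cells, where 12.8% of all tested genes fell and 10.7% rose, and their median was -0.60. CFB, factor B of the alternative pathway, was at 2.22 ± 0.72 TPM in NOTCH1KO cells, against 9.94 ± 3.02 TPM in WT cells (SD, n = 4 each; log2 difference -1.75 ± 0.30 SE, adjusted p = 0.00521). CFI, the protease that inactivates C3b and C4b, was at 1.32 ± 0.83 TPM in NOTCH1KO cells, against 6.42 ± 2.85 TPM in WT cells (log2 difference -1.68 ± 0.40 SE, adjusted p = 0.0183), and its call was lost without WT on Jagged1 with DMSO or DAPT or NOTCH1KO on Jagged1 with DAPT (adjusted p up to 0.0563). CD59, a membrane inhibitor of the terminal complex, was at 118 ± 25.2 TPM in NOTCH1KO cells, against 221 ± 52.6 TPM in WT cells (log2 difference -0.89 ± 0.22 SE, adjusted p = 0.0197), and 5 of 12 fits with 1 library left out lost it (up to 0.0669). The gene that rose was CD46, another membrane regulator, named after its values were seen (log2 difference 0.41 ± 0.11 SE, adjusted p = 0.0302; lost in 5 of 12 such fits, up to 0.0949). In NOTCH2KO cells none of the 7 was called, and 1 was lower at an unadjusted p under 0.05 (limma). C1QA, C1QB and C1QC, the recognition subunits that C1R and C1S bind, were listed at 0 in every library.

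Tetraspanins gave 5 falls among 10 tested in NOTCH1KO cells, with a median of -0.51, where 12.8% of all tested genes fell. CD82 (log2 difference -1.30 ± 0.16 SE, adjusted p = 0.0011) and TSPAN4 (log2 difference -0.99 ± 0.25 SE, adjusted p = 0.024) were among them, although TSPAN4 was not called on the coverage scale (adjusted p = 0.111) or in 4 of 12 fits with 1 library left out (up to 0.0713). In NOTCH2KO cells 1 rose and 2 fell, with a median of 0.16, the rise being that of TSPAN14 (log2 difference 1.01 ± 0.16 SE, adjusted p = 0.0046). In TNF and lymphotoxin receptor signalling 2 of 13 fell in NOTCH1KO cells, near the background of 12.8%, while 4 rose and 1 fell in NOTCH2KO cells. TNFRSF1B, the second TNF receptor, fell in NOTCH1KO cells (log2 difference -1.25 ± 0.18 SE, adjusted p = 0.00205) and rose in NOTCH2KO cells (log2 difference 0.69 ± 0.18 SE, adjusted p = 0.0277), a rise lost with the genotype term alone (adjusted p = 0.204) and in 5 of 12 fits with 1 library left out (up to 0.0938). BIRC3, a ubiquitin ligase of this pathway (log2 difference 0.71 ± 0.14 SE, adjusted p = 0.0116), and MAP3K14, the NF-κB-inducing kinase (log2 difference 0.71 ± 0.15 SE, adjusted p = 0.0152), rose in NOTCH2KO cells, the MAP3K14 call being lost in 4 such fits (up to 0.0539).

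Of 18 genes of WNT receptors and proximal signalling outside the stretch, 3 fell in NOTCH1KO cells, where 12.8% of all tested genes fell, and 4 rose in NOTCH2KO cells, where 12% rose. ROR2 (log2 difference -0.60 ± 0.14 SE, adjusted p = 0.016) and FZD4 (log2 difference -0.53 ± 0.15 SE, adjusted p = 0.033), both receptors, were among the falls, and AXIN2, a feedback inhibitor, among the rises (log2 difference 0.62 ± 0.17 SE, adjusted p = 0.0388). Leaving out 1 library ended the ROR2 call in 2 of 12 fits (up to 0.0568), the FZD4 call in 9 (up to 0.0857) and the AXIN2 call in 9 (up to 0.125). Of 9 peroxisomal import genes 2 fell in NOTCH1KO cells, PEX10 (log2 difference -0.57 ± 0.12 SE, adjusted p = 0.01) and PEX26 (log2 difference -0.58 ± 0.17 SE, adjusted p = 0.0426), the PEX26 call being lost in 10 of 12 such fits (up to 0.129), and PEX6 fell in NOTCH2KO cells (log2 difference -0.67 ± 0.11 SE, adjusted p = 0.00497). Of 4 CDK inhibitor genes CDKN1A fell in NOTCH1KO cells (log2 difference -1.05 ± 0.17 SE, adjusted p = 0.00413; adjusted p = 0.199 on the coverage scale). None of the 4 was called in NOTCH2KO cells, where 2 were higher at an unadjusted p under 0.05 (limma).

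The culture comparisons asked whether ligand or γ-secretase inhibition moved the same genes. No member was called for Jagged1 against Fc in DMSO, for DAPT against DMSO on Jagged1 or for DAPT against DMSO on Fc, with 14, 11 and 5 members at an unadjusted p under 0.05 (limma). Over all tested genes 0.0114% rose with Jagged1 and 0% fell, 0% rose and 0.0284% fell with DAPT on Jagged1, and 0.017% rose and 0.017% fell with DAPT on Fc, so the calls were few everywhere. The smallest p among members on Jagged1 belonged to GABARAPL1 (log2 difference 0.56, adjusted p = 0.22) and C1S (0.58, adjusted p = 0.258). WNT5B was lower on Jagged1 (-1.09, adjusted p = 0.258), and ETV6 was lower with DAPT on Jagged1 (-0.53, adjusted p = 0.128). The member medians were 0.02, 0.02 and 0.03 in the 3 comparisons.

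The genes on either side of the limits of the rule are given as a description. Those just below 5 TPM were LRP6 (mean 4.54 TPM), SCARNA12 (4.87 TPM) and PRR4 (4.88 TPM), with log2 differences in NOTCH2KO cells of -0.58, -0.87 and -0.73. Just above it were SPSB2 (5.10 TPM), GPRC5A (5.22 TPM) and DDX12P (5.32 TPM), with -0.31, -0.28 and -0.42. The last 2 genes before 20 Mb, AEBP2 and EEF1A1P4, had -0.56 and -0.11, and the first 2 of the same level after it, SLCO1B3 and PYROXD1, had 0.44 and -0.27.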

How the data were processed

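Poly-A RNA of 12 DAOY libraries was sequenced as single reads of 51 bases, per the labels. Reads were demultiplexed with bcl2fastq 2.17 and CASAVA and referred to GRCh37, according to the submitters' processing notes. The aligner, the quantifier, the annotation release and the use of strand are not given in the sources used here. Deposited gene tables hold TPM, FPKM and coverage, which the authors computed per gene and library. No read counts were used, so no count test was made. Depth was estimated at 18300000 to 22400000 reads per library from the deposited coverage over FPKM, and it limits the precision of low values.

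Library pairs (66) correlated at 0.924 to 0.976, and 0 pairs were identical. Genes with a mean of at least 1 TPM (17621) were fitted with limma 3.58.1 in R 4.3.3 on log2(TPM + 1), with trend and with terms for genotype and culture (6 residual degrees of freedom). A log2 difference on this scale understates the change of low genes. Calls were made at a Benjamini-Hochberg adjusted p under 0.05 over all tested genes, and the fit was tested on simulated data. Members, role lists and partner lists were chosen with earlier results of these data known. Genes were named by rank of the called difference, by rank in each role and partner list, by level and by distance to the limits of the rule, while C12orf4, EPS8, CHD4, WNT5B, CD46 and genes printed without values were named after their values were seen. Of the members 42 overlap another listed gene. Gene type was taken from GENCODE v29. Alternatives were another pseudocount, other filters, FPKM, coverage, centring, library weights, the comparison term alone and leaving out each library. Genomic DNA was not analysed here.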

Additional observations from a re-analysis of the deposited data

Results flagged for a closer look

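Of 174 groups of 4 libraries (58 genes in 3 genotypes), 8 had 1 library whose distance to the next, as a share of the group's range, passed Dixon's critical value, where chance gives about 5%. Among members, CD9 was at 249 TPM in WT cells on Jagged1 with DAPT, against 196 to 203 TPM in the other WT libraries. NOP2 was at 101.2 TPM in NOTCH2KO cells on Fc with DMSO, against 69.9 to 74.7 TPM in the other NOTCH2KO libraries. RAD51AP1 was at 104 TPM in NOTCH1KO cells on Fc with DAPT, against 84.3 to 87.3 TPM in the others of that genotype. WNT5B was at 33.7 TPM in NOTCH2KO cells on Fc with DMSO, against 12.6 to 13.8 TPM in the others. Off the stretch, CD59 was low in WT cells on Jagged1 with DAPT, at 143 TPM against 243 to 255 TPM. FZD4 was high on Jagged1 with DMSO both in NOTCH1KO cells (2.998 TPM against 1.55 to 1.61 TPM) and in WT cells (6.20 TPM against 2.35 to 2.602 TPM). TSPAN14 was low in WT cells on Jagged1 with DMSO, at 25.3 TPM against 43.4 to 46.2 TPM.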

How the results depend on the processing

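With libraries centred on their median, the member median was 0.0142 in NOTCH1KO cells (a turn in direction), -0.4967 in NOTCH2KO cells and -0.4054 for NOTCH2KO against NOTCH1KO, where 6 members then rose. Members that start before 10 Mb had a NOTCH1KO median of -0.1025. In single cultures the median was -0.1621 for NOTCH1KO and -0.296 for NOTCH2KO on Jagged1 with DMSO, and -0.415 for NOTCH2KO against NOTCH1KO on Fc with DAPT. Leaving out 1 library gave 3 to 6 rises, 10 to 19 falls and medians of -0.0943 to -0.0198 in NOTCH1KO cells. It gave 0 to 1 rises, 28 to 41 falls and medians of -0.4337 to -0.3565 in NOTCH2KO cells, and 6 to 10 rises, 28 to 35 falls and medians of -0.3046 to -0.2431 for NOTCH2KO against NOTCH1KO. The culture comparisons gave 0 called members under each alternative run. The count of falls in NOTCH1KO cells was 14 with no filter on low values, and TAPBPL, TNFRSF1A and SPSB2 were among the falls that this ended. For single named genes 197 values lost their call and 18 gained one, while 2097 kept their call or stayed without one. Estimates near 0 that were not called can change sign under an alternative, such as centring, and such changes are not in these counts. The cause of these changes was not tested. The labels give no replicate numbers, so genotypes were matched by culture alone, which was already a term of the fit. Protein-coding members alone were read as an alternative chosen after seeing the data.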

Other observations

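Some pseudogene-like members stood far apart between libraries of 1 genotype. RPL7P6, a ribosomal protein pseudogene, was at 91.9, 110.0, 95.5 and 95.4 TPM in NOTCH1KO cells, 97.6, 5.73, 10.5 and 100.1 TPM in NOTCH2KO cells and 94.5, 6.19, 101.1 and 9.72 TPM in WT cells, with the Fc pair before the Jagged1 pair and DMSO before DAPT. All 4 NOTCH1KO values were high, while NOTCH2KO and WT cells each had 2 high and 2 low libraries. RPL13AP20 was at 39.6, 24.4, 194 and 223 TPM in NOTCH1KO cells, 28.9, 26.8, 25.3 and 20.4 TPM in NOTCH2KO cells and 31.9, 33.04, 165 and 24.2 TPM in WT cells. EIF2S3L, close in sequence to a translation initiation factor gene on another chromosome, was at 3.35, 25.2, 14.5 and 3.47 TPM in NOTCH1KO cells, 16.9, 3.06, 17.8 and 17.1 TPM in NOTCH2KO cells and 13.4, 2.51, 18.5 and 2.01 TPM in WT cells. None of the 3 was called in either knockout, and they were singled out after their values were seen.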
